A study of Homo sapiens with 2 samples.

Results

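The 44 genes described here run cholesterol and fatty acid metabolism in liver cells, and the data are lists of open chromatin sites in HepG2 cells with and without the nuclear receptor NR2E3. The genes were chosen by name and by their textbook role, in 6 functions: sterol regulation (5 genes), sterol synthesis (12), fatty acid synthesis (9), fatty acid oxidation (7), uptake, activation and transport (6), and triglyceride synthesis and storage (5). A listed site was counted for a gene when the deposited annotation gave that gene as the nearest. Of 56159 listed sites, 140 were counted in this way, and they were spread over 38 of the 44 genes. INSIG1, LSS, MVD, ELOVL6, FADS2 and MTTP were the nearest gene of no listed site.

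Cholesterol and fatty acid synthesis are governed by the sterol regulatory element binding proteins, SREBP-1 and SREBP-2, which are made from SREBF1 and SREBF2. When sterols are low, the escort protein SCAP carries the SREBP precursors from the endoplasmic reticulum to the Golgi, where they are cut to release transcription factors. When sterols are high, INSIG1 and INSIG2 hold SCAP back. Released SREBPs bind sterol regulatory elements in the promoters of lipid enzyme genes, commonly beside sites for the general factors NFY and Sp1.

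HepG2 is an established human liver cancer cell line. Lentiviral particles delivered a hairpin RNA to both groups, scrambled in the control and directed at NR2E3 in the cells called NR2E3-depleted. Open chromatin was recovered by FAIRE, in which DNA not held in crosslinked protein is isolated and sequenced. Each group had 1 library, so the differences have no replicate check and no p-value is given. Intervals in brackets are 95% intervals that cover counting error only.

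The sites, called peaks, each span 300 bp and are listed as common to both libraries (14368), specific to the control library (16236) or specific to the NR2E3-depleted library (25555, here depleted-specific). Inferred depths were 24.6 M (mega) tags for control and 19.7 M for NR2E3-depleted cells. Of 13 hepatocyte marker genes, 13 had a listed peak and 8 had a promoter peak, among them HNF4A and APOA1, but none was listed at the promoter of ALB or AFP. Of 6 markers of other cell types, 3 had a listed peak and 0 had a promoter peak. Over all protein-coding genes the shares were 51.4% with a listed peak and 28.0% with a promoter peak. NR2E3 itself had 1 listed peak, which was depleted-specific and outside the promoter, and FAIRE does not measure its transcript.

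The promoter sequences that the results turn on are shown first, in hg38 and on the strand of the gene, from 5′ to 3′. Capitals mark every match to 4 binding words on either strand: GGGCGG for Sp1, CCAAT for NFY, CACGTG for the E-box and TCACNCCAC for the sterol regulatory element. The first 5 are depleted-specific promoter peaks, of the 3 sterol regulators listed there alone and of a desaturase and a sterol reductase. The last 2 are common promoter peaks of sterol enzymes, for contrast. The genes lie on the plus strand (SREBF2, FDPS) or the minus strand (SCAP, SREBF1, FADS1, DHCR7, HMGCS1).
SREBF2 promoter peak, chr22:41832755-41833054: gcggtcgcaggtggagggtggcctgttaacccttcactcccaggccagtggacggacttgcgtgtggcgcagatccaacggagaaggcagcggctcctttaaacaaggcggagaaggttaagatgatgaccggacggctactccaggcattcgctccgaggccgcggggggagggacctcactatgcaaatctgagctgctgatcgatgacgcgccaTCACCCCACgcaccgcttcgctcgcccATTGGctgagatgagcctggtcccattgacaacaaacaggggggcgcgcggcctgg
SCAP promoter peak, chr3:47475791-47476090: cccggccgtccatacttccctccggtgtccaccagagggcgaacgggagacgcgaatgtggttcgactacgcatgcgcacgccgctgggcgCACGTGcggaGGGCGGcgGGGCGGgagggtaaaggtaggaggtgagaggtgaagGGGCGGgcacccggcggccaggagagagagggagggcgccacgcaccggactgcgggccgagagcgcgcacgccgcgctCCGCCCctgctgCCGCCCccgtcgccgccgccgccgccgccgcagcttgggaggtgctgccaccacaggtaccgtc
SREBF1 promoter peak, chr17:17823646-17823945: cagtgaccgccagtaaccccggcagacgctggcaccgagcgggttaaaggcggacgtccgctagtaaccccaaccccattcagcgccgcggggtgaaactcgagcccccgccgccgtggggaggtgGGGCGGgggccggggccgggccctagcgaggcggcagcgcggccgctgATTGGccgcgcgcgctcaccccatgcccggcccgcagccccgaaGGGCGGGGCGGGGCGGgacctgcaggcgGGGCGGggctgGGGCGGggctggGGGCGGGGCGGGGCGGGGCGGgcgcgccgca
FADS1 promoter peak, chr11:61816905-61817204: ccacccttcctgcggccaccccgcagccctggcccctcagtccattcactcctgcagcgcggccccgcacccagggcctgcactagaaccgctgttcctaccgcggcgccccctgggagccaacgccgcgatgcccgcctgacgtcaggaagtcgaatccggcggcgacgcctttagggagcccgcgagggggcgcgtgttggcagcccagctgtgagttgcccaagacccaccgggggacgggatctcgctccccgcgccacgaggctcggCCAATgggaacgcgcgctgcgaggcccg
DHCR7 promoter peak, chr11:71448380-71448679: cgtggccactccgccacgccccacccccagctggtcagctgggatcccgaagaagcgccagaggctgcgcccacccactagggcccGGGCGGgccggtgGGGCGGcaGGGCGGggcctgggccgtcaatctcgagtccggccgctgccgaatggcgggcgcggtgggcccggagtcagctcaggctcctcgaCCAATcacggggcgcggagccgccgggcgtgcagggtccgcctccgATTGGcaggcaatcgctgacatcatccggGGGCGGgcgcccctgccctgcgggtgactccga
HMGCS1 promoter peak, chr5:43313557-43313856: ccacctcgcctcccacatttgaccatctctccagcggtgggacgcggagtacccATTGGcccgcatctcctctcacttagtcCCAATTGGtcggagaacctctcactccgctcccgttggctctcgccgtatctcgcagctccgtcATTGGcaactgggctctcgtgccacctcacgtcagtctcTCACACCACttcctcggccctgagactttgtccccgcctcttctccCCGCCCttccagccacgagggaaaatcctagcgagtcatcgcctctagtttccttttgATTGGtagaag
FDPS promoter peak, chr1:155308599-155308898: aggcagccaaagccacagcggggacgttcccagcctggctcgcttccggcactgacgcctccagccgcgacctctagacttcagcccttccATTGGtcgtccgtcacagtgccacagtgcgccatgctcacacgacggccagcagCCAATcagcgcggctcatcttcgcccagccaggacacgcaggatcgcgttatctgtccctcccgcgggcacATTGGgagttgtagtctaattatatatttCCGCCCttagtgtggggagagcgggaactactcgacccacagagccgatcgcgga

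The SREBF2 peak holds 1 sterol regulatory element word, TCACCCCAC, at bases 218 to 226 from its 5′ end, and 1 NFY word at bases 245 to 249. The HMGCS1 peak holds the sterol element word TCACACCAC at bases 186 to 194 and 5 NFY words. The SREBF1 peak holds 10 Sp1 words, several of them overlapping, and 1 NFY word. SCAP has 5 Sp1 words and 1 E-box, DHCR7 has 4 Sp1 and 2 NFY words, FDPS has 3 NFY words and 1 Sp1 word, and FADS1 has 1 NFY word alone. These are matches of letters, and binding was not measured.

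The comparison asked whether open sites at lipid genes differed between control and NR2E3-depleted cells. Promoter peaks of the 44 genes were listed as common (12 peaks at 12 genes) or as depleted-specific (11 peaks at 10 genes), and 0 were control-specific. The 10 genes with a depleted-specific promoter peak were SREBF1, SREBF2, SCAP, INSIG2, SQLE, DHCR7, ACACB, FASN, FADS1 and DGAT1. They made up 22.7% of the set (11.5% to 37.8%), against 11.7% of all 20056 protein-coding genes, a share that lies near the lower bound of the interval. INSIG2 also had a common promoter peak, and the other 9 (20.5%, 9.80% to 35.3%) had a promoter peak in the depleted-specific list alone, as did 10.5% of all genes. A control-specific promoter peak was listed for 3.64% of all genes, and 0 of 44 genes allows up to 8.04%, so the absence of such a peak is within what counting allows.

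A common promoter peak was listed at 27.3% of the lipid genes (14.96% to 42.8%) and at 14.5% of all genes. With any list taken, 21 lipid genes (47.7%) had a promoter peak, against 28.0% of all genes, and 38 (86.4%) had a peak of any class, against 51.4%. The background covers every protein-coding gene, whether or not HepG2 cells use it. Counted by library, the control library had promoter peaks at 12 lipid genes (27.3%, against 17.5% of all genes) and the NR2E3-depleted library at 21 (47.7%, against 25.3%).

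**Figure D1:**
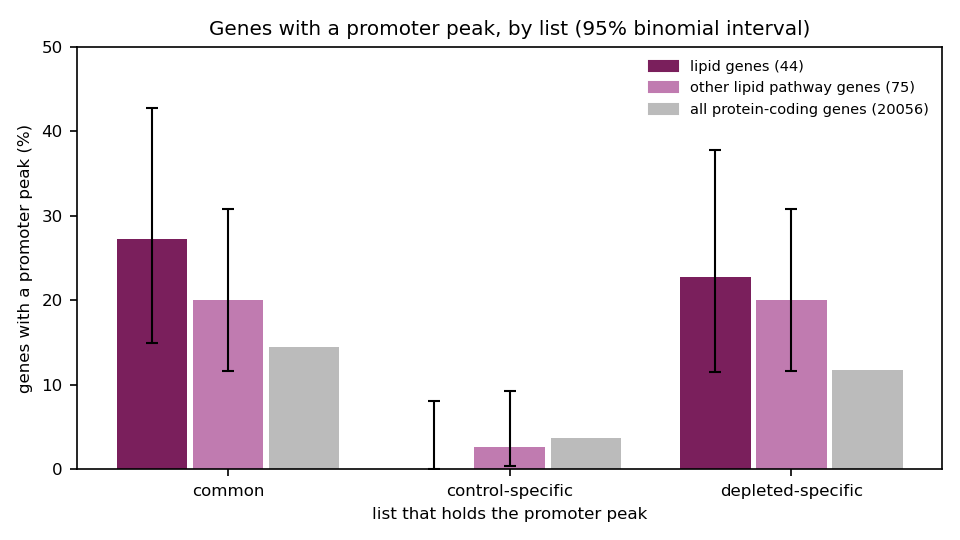
Percentage of genes (y axis) with a promoter peak in the common, control-specific or depleted-specific list (x axis), for the 44 lipid genes, 75 further lipid pathway genes and all protein-coding genes. Error bars are exact binomial 95% intervals; the lipid genes stand at 27.3%, 0 and 22.7%, the further pathway genes at 20%, 2.67% and 20%, and all genes at 14.5%, 3.64% and 11.7%.

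Over all classes the lipid genes had 51 common peaks, 26 that were control-specific and 63 that were depleted-specific. The ratio of depleted-specific to control-specific peaks was 2.42 (1.51 to 3.99), against 1.57 over all peaks. The ratio depended on the threshold. Among peaks of at least 15 inferred tags it was 1.55, and among peaks with a score of at least 6 it was 5.09. The ratio over all peaks was not computed at these thresholds, so these 2 values cannot be set against 1.57. Promoter peaks made up 17.5% of the lipid genes' depleted-specific peaks (9.05% to 29.1%) and 11.1% of all depleted-specific peaks. The share among common peaks was 23.5% for the lipid genes and 24.0% overall.

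**Figure D2:**
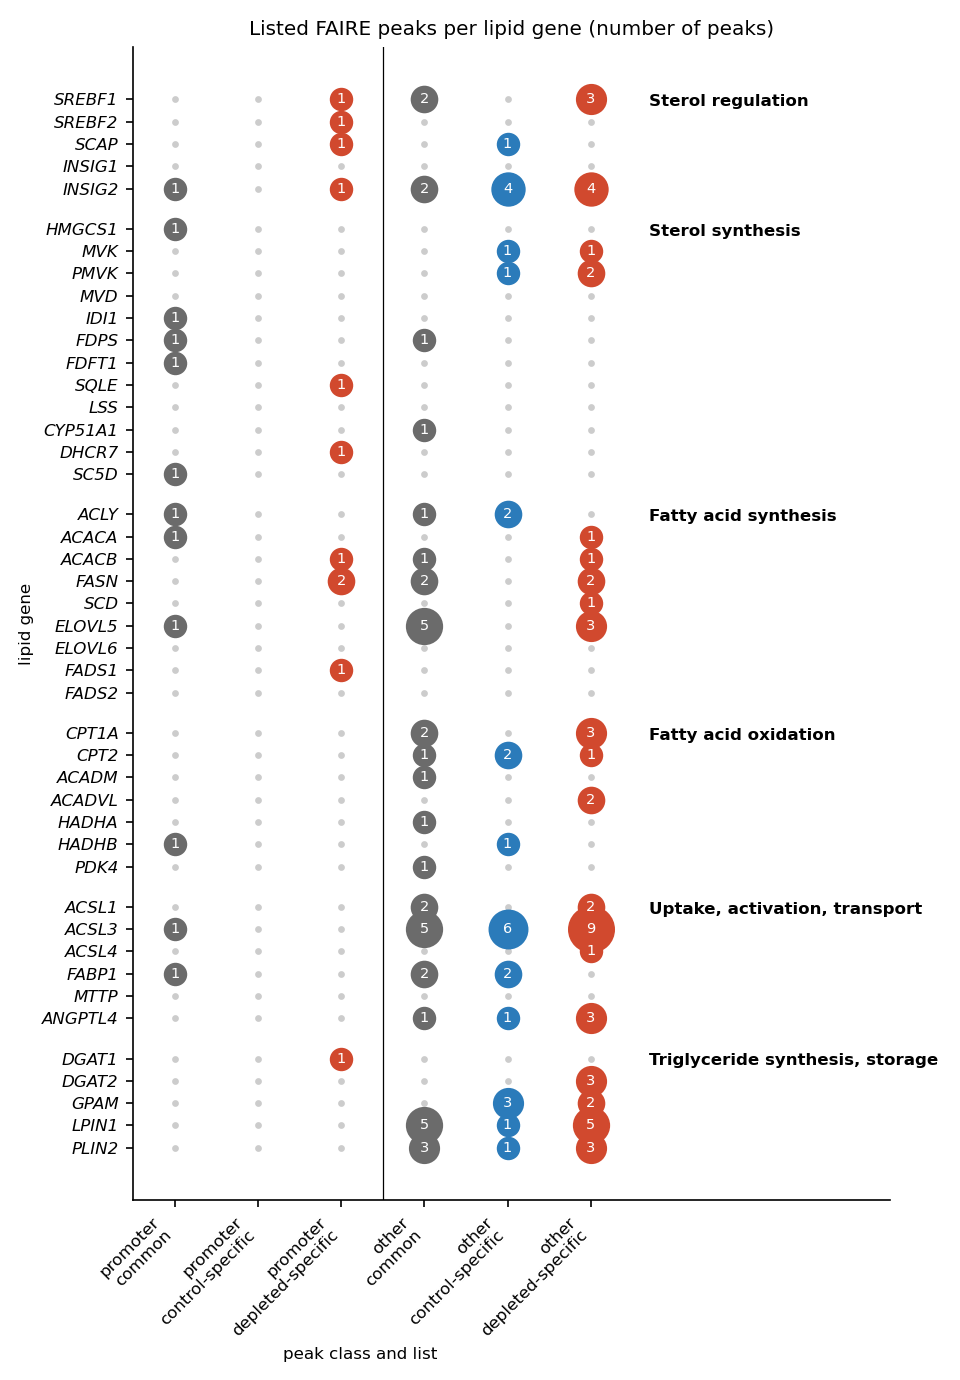
Number of listed peaks for each of the 44 lipid genes (rows, grouped by function) in 6 columns, promoter class on the left and all other classes on the right, each split into common, control-specific and depleted-specific lists. The circle area grows with the number printed in it and small grey dots mark 0; the control-specific promoter column is empty, and ACSL3 has the most peaks.

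Sterol regulators had depleted-specific promoter peaks at 4 of 5 genes (28.4% to 99.5%, against 11.7% of all genes). SREBF2, which encodes the main activator of cholesterol synthesis, had a single listed peak, on chromosome 22 from 41832755 to 41833055, centred 200 bp upstream of its start. That peak had a score of 10.6, equal to 21 tags (13.0 to 32.1), and 93.9% of depleted-specific promoter peaks had fewer tags. The nearest peak of any other list lay 108505 bp away. SCAP, the escort of both SREBPs, had a depleted-specific peak centred on its start on chromosome 3 (47475791 to 47476091), with 20 tags. A control-specific peak of SCAP lay in intron 1 of 22 at 31986 bp, the nearest peak of another list.

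SREBF1, which encodes the activator of fatty acid synthesis, had 2 common and 4 depleted-specific peaks and 0 control-specific peaks. Its depleted-specific promoter peak, on chromosome 17 from 17823646 to 17823946, had 12 tags, and 14.3% of depleted-specific promoter peaks had fewer. The peak served an internal start, 13206 bp inside the gene, while a common peak with 16 tags lay in intron 1, 662 bp past the upstream start. SREBF1 was thus listed near its upstream start in both libraries. INSIG2, the sterol sensor partner of SCAP, had 12 peaks. Its common promoter peak at -179 bp had 23 tags, the most of any common promoter peak in the set, and the depleted-specific one at -934 bp, with 13 tags, lay 755 bp from it. INSIG2 lies on chromosome 2, which is dense in peaks. INSIG1, the other partner of SCAP, had no listed peak.

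Enzymes of sterol synthesis had common promoter peaks at 5 of 12 genes (41.7%, 15.2% to 72.3%, against 14.5% of all genes). Depleted-specific ones stood at 2 of 12 (16.7%, 2.09% to 48.4%), a share near the 11.7% of all genes. Common promoter peaks stood at HMGCS1, which makes the precursor of mevalonate (16 tags), at IDI1, the isopentenyl diphosphate isomerase (15 tags), and at FDPS, the farnesyl diphosphate synthase (22 tags). FDFT1, the squalene synthase, had 19 tags, and SC5D, a late sterol desaturase, had 14. These 5 promoters were thus listed as open in both libraries. The depleted-specific promoter peaks belonged to SQLE, the squalene epoxidase, and DHCR7, the reductase of the last step. SQLE had a single listed peak, centred 20 bp upstream of its start, with a score of 10.6 and 21 tags, and the nearest peak of another list lay 221004 bp away. DHCR7 also had a single listed peak, on chromosome 11 from 71448380 to 71448680, with 19 tags, more than 87.7% of depleted-specific promoter peaks. It stood at a start 4338 bp inside the annotated gene, and a further depleted-specific peak, listed for the neighbour NADSYN1, lay 242 bp upstream of the outer start.

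Among 9 genes of fatty acid synthesis, ACLY, ACACA and ELOVL5 had common promoter peaks and FASN, ACACB and FADS1 had depleted-specific ones. Each count was 3 of 9 (33.3%, 7.49% to 70.1%), an interval that holds the shares of all genes, 14.5% and 11.7%. ACLY, which supplies cytosolic acetyl-CoA, had 14 tags, ACACA, the cytosolic acetyl-CoA carboxylase, had 20, and the elongase ELOVL5 had 14. FASN, the fatty acid synthase, had depleted-specific promoter peaks at -17 and -621 bp on chromosome 17, each with a score of 7.60 and 15 tags. The nearest peak of another list was common and lay 3173 bp from the upstream one, inside the neighbouring gene CCDC57. ACACB, the carboxylase at the mitochondrial surface, had a depleted-specific peak at -648 bp with 13 tags. FADS1, a desaturase of polyunsaturated fatty acids, had 21 tags at -52 bp on chromosome 11 (61816905 to 61817205). That peak stood at a start 12263 bp inside the annotated gene, and a start of FADS2 lay within 1000 bp of it. SCD, the stearoyl-CoA desaturase, had no promoter peak and a single depleted-specific peak 4653 bp upstream. Over all classes the 9 genes had 12 common peaks, 2 in the control-specific list and 12 in the depleted-specific list. The ratio was 6 (1.34 to 55.2), an interval that holds the 1.57 over all peaks.

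**Figure D3:**
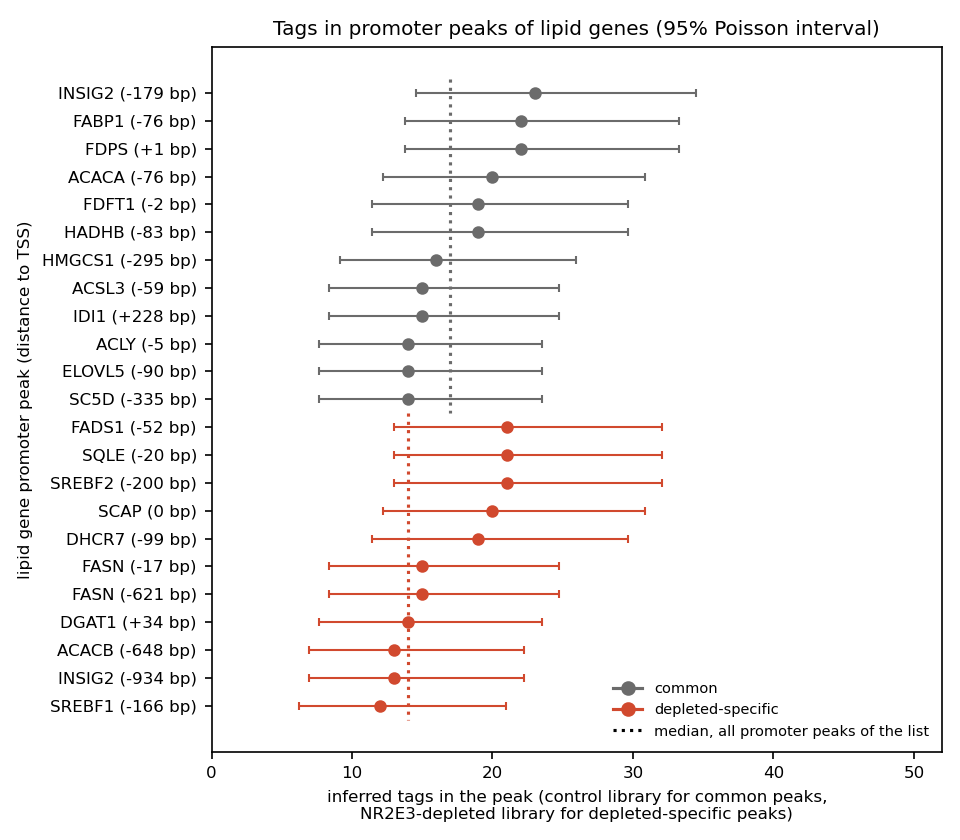
Inferred tags (x axis) in each of the 23 promoter peaks of the lipid genes, with exact Poisson 95% intervals as bars and the distance to the start in brackets. Grey points are common peaks (control library) and red points depleted-specific peaks (NR2E3-depleted library), and dotted lines mark the medians of all promoter peaks of each list, 17 and 14 tags; the intervals overlap throughout.

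Genes of fatty acid oxidation and of uptake, activation and transport had 0 depleted-specific promoter peaks (0 of 7 genes, which allows up to 41.0%, and 0 of 6, which allows up to 45.9%). Common promoter peaks were listed at HADHB, a subunit of the mitochondrial trifunctional protein (19 tags), at FABP1, the liver fatty acid binding protein (22 tags), and at ACSL3, an acyl-CoA synthetase (15 tags). CPT1A, the entry enzyme of mitochondrial oxidation, had 2 common and 3 depleted-specific peaks, all outside the promoter. The tallest of these had 20 tags and lay 2627 bp past the start, in intron 1 of 18. Of the 5 genes of triglyceride synthesis and storage, DGAT1 alone had a promoter peak in any list by the deposited naming. DGAT1 catalyses the last step of triglyceride synthesis, and the peak was depleted-specific, at +34 bp, with 14 tags. DGAT2, which catalyses the same step, had 3 depleted-specific peaks in intron 1 of 6, at 13865, 14326 and 15528 bp past its start and with 13, 15 and 18 tags. With 5 to 12 genes in a function, the shares of the functions were too uncertain to order.

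The depleted-specific promoter peaks of the lipid genes had a median of 15 tags (12 to 21), against 14 over all depleted-specific promoter peaks. For the common ones the median was 17.5 tags (14 to 23), against 17. Heights were thus close to those of the whole lists. Scores of common peaks were given for the control library alone, so the height of a common peak in the NR2E3-depleted library was not analysed here. SREBF2, FADS1 and SQLE, with 21 tags each, and SCAP and DHCR7, with 20 and 19, stood in the upper part of the list. Under a minimum of 15 tags 6 genes kept a depleted-specific promoter peak: these 5 and FASN.

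The nearest-gene rule hid further peaks at annotated starts, not all of them of the promoter class. Windows from 1000 bp upstream to 100 bp downstream of any annotated start of a lipid gene held 11 peaks that were listed for another gene. Common peaks of this kind lay at MVK, the mevalonate kinase (listed for the divergent gene MMAB), at MTTP, the triglyceride transfer protein (TRMT10A), at MVD (SNAI3-AS1), at the upstream start of ACLY (TTC25), and at HADHA, which shares the promoter peak of HADHB. Control-specific ones lay at CYP51A1, the lanosterol demethylase (CYP51A1-AS1, 13 tags), and at ACADVL, the very long chain acyl-CoA dehydrogenase (DLG4, 13 tags). Depleted-specific ones lay at DHCR7 (NADSYN1), at FADS1 and FADS2 (MIR1908), at MVD (SNAI3-AS1) and at LPIN1 (MIR4262). The depleted-specific peaks at MVD and LPIN1 were of the intron class, and the LPIN1 one lay 138768 bp inside the gene. With these windows 18 lipid genes had a common peak at a start (40.9%, 26.3% to 56.8%), against 21.3% of 20020 protein-coding genes. A control-specific peak was found at 5 (11.4%, 3.79% to 24.6%, against 6.93%) and a depleted-specific peak at 17 (38.6%, 24.4% to 54.5%, against 18.5%). The control-specific peaks at ACSL3, CPT2 and SCAP were listed for these genes themselves, outside the promoter class. The lipid genes had a median of 9 annotated starts, against 5 for all genes, and thus more windows each. The count of 0 control-specific promoter peaks therefore holds for the deposited naming and promoter class only.

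**Figure D4:**
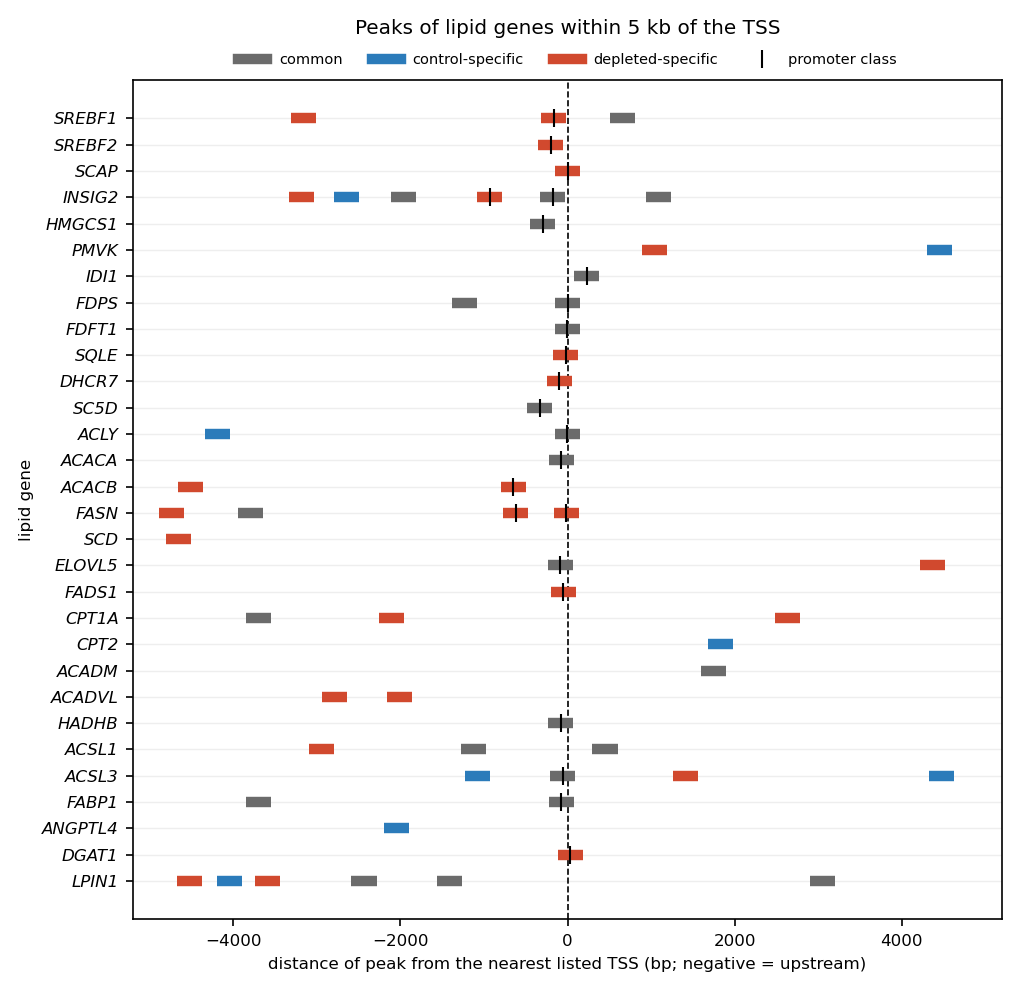
Listed peaks of the lipid genes within 5 kb of the nearest start (x axis, distance in bp, negative upstream), 1 row per gene in order of function. Bars are 300 bp peaks coloured by list, and a black tick marks the promoter class; control-specific peaks lie outside the promoter class in every row.

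Outside promoters the lipid genes had 39 common peaks, 26 that were control-specific and 52 that were depleted-specific. Depleted-specific distal peaks were listed for 20 genes (45.5%, against 29.1% of all genes), control-specific ones for 13 (29.5%, against 18.6%) and common ones for 19 (43.2%, against 16.7%). The ratio of depleted-specific to control-specific distal peaks was 2.00 (1.23 to 3.34), an interval that holds the 1.48 over all distal peaks. These peaks lay nearer to starts than distal peaks in general. The median distance was 11304 bp for common, 19310 bp for control-specific and 11741 bp for depleted-specific peaks, against 24400, 29386 and 29154 bp over all distal peaks.

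Peaks were spread unevenly over the genes. ACSL3 had 21 peaks (6 common, 6 control-specific and 9 depleted-specific), followed by INSIG2 with 12, the phosphatidate phosphatase LPIN1 with 11, ELOVL5 with 9 and the lipid droplet protein PLIN2 with 7. ACSL3, INSIG2 and LPIN1 all lie on chromosome 2. The tallest peak of the set was a common one 64216 bp upstream of ACSL3, with a score of 15.9 and 39 tags. A control-specific peak with 18 tags lay 573 bp from it. The tallest depleted-specific peak stood 12382 bp upstream of ACSL1, the main hepatic acyl-CoA synthetase, with a score of 11.7 and 23 tags. ANGPTL4, a secreted inhibitor of lipoprotein lipase, had 3 depleted-specific peaks between 6878 and 10046 bp upstream and a control-specific one at 2047 bp upstream. LPIN1 had 5 common peaks, 1 control-specific peak and 5 depleted-specific peaks, all within its introns.

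Chromosomes 2, 6, 14, 16, 17 and 20 were dense in peaks of every list, and 13 of the 44 genes lie on them. On these chromosomes the ratio of depleted-specific to control-specific peaks was 2.06 for the lipid genes (1.10 to 4.01) and 1.27 over all peaks. On the other chromosomes it was 3 for the 31 lipid genes (1.43 to 6.88) and 2.92 over all peaks. Depleted-specific promoter peaks were listed at 3 of 13 genes on the dense chromosomes (23.1%, against 13.2% of 5248 protein-coding genes) and at 7 of 31 on the others (22.6%, 9.59% to 41.1%, against 11.9% of 13890). Those 7 were SREBF2, SCAP, SQLE, DHCR7, ACACB, FADS1 and DGAT1. Common promoter peaks were listed at 7 of the 13 genes (53.8%, 25.1% to 80.8%, against 26.1%) and at 5 of the 31 (16.1%, 5.45% to 33.7%, against 11.03%).

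Binding words were also counted in promoter windows that did not depend on a peak, from 250 bases before to 50 after each RefSeq start (GRCh38.p14), for the 39 lipid genes with such a sequence and for 15843 protein-coding genes. An Sp1 word was found at 36 lipid genes (92.3%, 79.1% to 98.4%), against 64.3% of all genes. By window, as a gene can have several, the shares were 77.6% of 58 and 56.3% of 22199. NFY words were found at 53.8% (37.2% to 69.9%), against 42.1%. They were held by 8 of 10 sterol synthesis genes, 6 of 8 fatty acid synthesis genes and 1 of 7 oxidation genes. E-box words were found at 15.4%, against 10.9%, and the sterol element word at 2 genes, ACSL1 and SREBF2, against 1.51% of all genes. A gene without the word can hold a variant that was not searched.

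**Figure D5:**
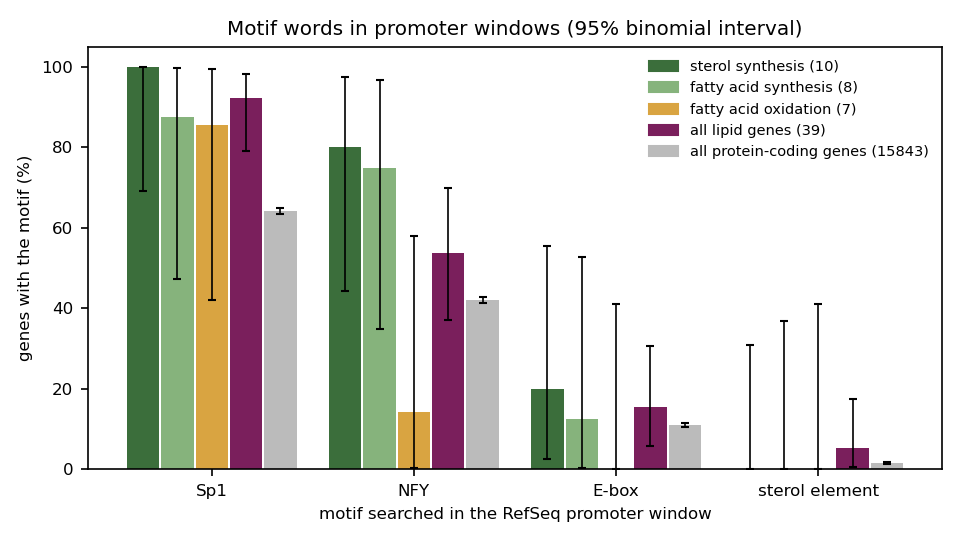
Percentage of genes (y axis) whose RefSeq promoter windows hold each binding word (x axis), for sterol synthesis, fatty acid synthesis and fatty acid oxidation genes, all lipid genes and all protein-coding genes. Bars are shares with exact binomial 95% intervals; NFY words stand at 80%, 75% and 14.3% of the 3 functions.

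Words were also counted within the promoter peaks themselves, for 18 of the 23. The peaks of FDFT1, SQLE, FASN and DGAT1, genes without a RefSeq promoter sequence, were left out. All but that of FDFT1 are depleted-specific. The shares of the whole lists kept these peaks, so the lipid counts are partial, above all for the depleted-specific list. An Sp1 word stood in 8 of 11 common peaks (72.7%, 39.0% to 94.0%, against 65.0% of that list) and in 3 of 7 depleted-specific peaks (42.9%, 9.90% to 81.6%, against 64.5%). Over both lists 12 of 18 held an NFY word (66.7%, 41.0% to 86.7%, against 44.6% of all 7183 promoter peaks). The sterol element word stood in 2 of them, the common peak of HMGCS1 and the depleted-specific peak of SREBF2 (11.1%, 1.38% to 34.7%, against 1.02%). Median GC content was 72.7% in the 7 depleted-specific peaks, against 64.0% over that list, and 63.3% in the 11 common ones, against 61.7%.

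Of 75 further genes of the same pathways, 15 (20%, 11.65% to 30.8%) had a promoter peak that was depleted-specific, against 11.7% of all genes. The share of all genes lies at the lower bound of that interval. A control-specific one was listed for 2 (2.67%, 0.325% to 9.30%), near the 3.64% of all genes. The depleted-specific ones covered cholesterol export from lysosomes (NPC1 with 21 tags and NPC2 with 18), sterol and isoprenoid steps (ACAT2 and GGPS1), acetyl-CoA and citrate supply (ACSS2 and SLC25A1), lipid droplets (CIDEC, HILPDA and PLIN3) and glycerolipid synthesis (AGPAT1). The others were ELOVL3, DECR1, HSD17B4, PDK2 and SLC27A1. The control-specific ones were ACSS2, which also had common and depleted-specific promoter peaks, and GPAT3, an acyltransferase, with 13 tags. A promoter peak in the depleted-specific list alone was found for 12 of the 75 (16.0%, 8.55% to 26.3%), against 10.5% of all genes. The ratio of depleted-specific to control-specific peaks of any class was 2.92 (1.83 to 4.80), against 1.57 over all peaks. The ratio over all peaks depended on the chromosome, at 1.27 on the dense chromosomes and 2.92 on the others. The 75 genes were not split by chromosome, so whether their ratio differs from that of their chromosomes was not tested.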

How the data were processed

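FAIRE-seq libraries of control and NR2E3-depleted HepG2 cells (1 each) were analysed from 3 deposited peak lists. Per the submitters' processing notes the authors used bcl2fastq 2.17, Trimmomatic 0.39, Bowtie2 2.4.5 and SAMtools 1.14 on hg38, and HOMER for peak calling and annotation. The rule that split the peaks into common and specific lists is not given in the sources used here. Each deposited peak carries a score, a tag number scaled by the authors. Within 0.0051, scores under 10 were whole multiples of 0.407 (common and control-specific lists) or 0.507 (depleted-specific list), and tags were inferred from these steps. Higher scores, listed with fewer decimals, were not tested. Depths assume a scale of 10 M (mega) tags, which is not stated. Start, end and distance to the transcription start were other deposited values.

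The members and lists were chosen with earlier results of these data known. Peaks were counted by nearest gene and HOMER promoter class. Named genes were those with a promoter peak specific to 1 list, with no listed peak, with the most or the highest peaks, or with a shared promoter, and examples per function. Naming SCD, CPT1A, DGAT2, ANGPTL4 and the peaks at other genes' starts was decided after their values were seen. The background was 20056 protein-coding genes of the RefSeq table. A gene listed under an older symbol counts as having no peak. Shares carry Clopper-Pearson, tags Poisson and ratios binomial exact intervals at 95%, all for counting error only and treating peaks as independent. Starts came from GENCODE release 44 and promoter sequences from RefSeq, which matched 39 of 44 genes. The finding of score steps, the search for binding words and the ratio interval were tested on simulated data, and the peak counts were not. Alternatives changed the score or tag minimum, chromosomes, merging, naming and promoter definition. Python 3.11.15, pandas 2.3.3 and scipy 1.17.1 were used.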

Additional observations from a re-analysis of the deposited data

How the results depend on the processing

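Of 76 alternative values, 57 stayed within the interval or within 1.5 times the count, 19 moved and 0 reversed. The ratio of depleted-specific to control-specific peaks moved to 5.09 with a score of at least 6. That threshold keeps peaks from 12 tags in the depleted-specific list and from 15 tags in the control-specific list. The ratio over all peaks was not computed with it. With at least 15 tags there were 7 depleted-specific promoter peaks at 6 genes. Without the 6 dense chromosomes there were 5 common promoter peaks at 5 genes and 7 depleted-specific ones, from fewer genes counted. Wider naming rules and promoter definitions raised the counts. With gene bodies and 10 kb around them as the naming rule there were 20 common, 5 control-specific (4 genes) and 20 depleted-specific promoter peaks. This rule also counts promoter peaks of neighbouring genes, and all the control-specific ones were listed for genes outside the set. Within 3000 bp of a start the numbers were 21, 4 (4 genes) and 18. With windows at any annotated start they were 19, 5 (5 genes) and 20 (17 genes). In all these settings more lipid genes were counted with a depleted-specific than with a control-specific promoter peak. The same order held over all protein-coding genes, at 11.7% against 3.64% by the deposited naming. With windows at any annotated start it was 18.5% against 6.93%. Shares over all genes were not computed for the other settings. With 1 library per group no replicate could be left out. No paired analysis was possible because the control and NR2E3-depleted groups hold 1 library each. With 12 to 23 tags in a promoter peak, the listing of a single peak in 1 library is not a firm difference.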

Other observations

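Several specific peaks of lipid genes had a peak of another list close by. At CPT2, the inner membrane carnitine palmitoyltransferase, a depleted-specific peak with 14 tags and a control-specific peak with 17 tags had centres 348 bp apart, 20208 and 19860 bp upstream of the start. At LPIN1 a common and a depleted-specific peak in intron 1 were 339 bp apart, with 13 tags each. At PLIN2 a depleted-specific peak lay 573 bp from a control-specific one, with 16 and 11 tags. Within 1000 bp of a peak of another list lay 5 of 26 control-specific peaks (19.2%, 6.56% to 39.4%) and 9 of 63 depleted-specific peaks (14.3%, 6.75% to 25.4%). Over all peaks the shares were 21.7% and 14.8%. Of the 11 depleted-specific promoter peaks, the one of INSIG2 alone was among the 9.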
